A study of Mus musculus with 36 samples.

Results

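The genes described here encode the proteins of the cytosolic ribosome. They were chosen by symbol alone: 83 of the 24060 gene symbols in the RNA count files matched the naming pattern of Rpl, Rplp or Rps followed by a number, 51 for the large subunit and 32 for the small subunit. To these were added the H2A.Z peaks within 1000 bp of a member's transcription start site, 68 peaks in 68 member genes out of 12204 promoter peaks and 20213 peaks in all. The rule used no level or fold change, but the peaks are those called in these libraries. The set was also chosen with earlier results of these data known.

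The series compared the hippocampus of C57BL/6J mice at 2.5 months (young) and 15.5 months (old), either naive or fear conditioned in a 5 min session with 3 foot shocks of 0.5 mA lasting 2 s, with brains frozen 30 min after training. All 4 groups were therefore of the same strain, and no transgene or drug is named for any of them. RNA was sequenced in 12 libraries, 3 for each combination of age and training, and another 12, again 3 per group, came from immunoprecipitation of chromatin with H2A.Z, while 12 input libraries were not analysed here. The labels do not say that each library came from a separate animal, so p-values measure the spread between these libraries.

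A ribosome holds 1 copy of nearly every ribosomal protein, so cells make these proteins in matched amounts. Much of that matching happens at translation: most of these mRNAs begin with a C followed by a run of pyrimidines (a TOP motif), through which the mTOR pathway and the binding protein Larp1 set how actively they are read. H2A.Z is a variant of histone H2A that sits in the nucleosomes flanking the start sites of many genes. Neurons need new protein synthesis to store a long-lasting fear memory.

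Promoter sequences were searched for the start site motif, and windows were printed from both ends of the range of H2A.Z folds. RefSeq promoters on GRCm38.p6, 250 bases before to 50 bases after the start, were matched by symbol for 62 of the 83 genes. The windows below run from 100 bases before to 20 bases after the start, on the sense strand, 5′ to 3′. The first 4 belong to the promoters with the deepest H2A.Z loss after training in young mice, and the other 4 to those with the least, among matched members whose start lay within 100 bases of the start in the peak table. Capitals mark CTTTC or CTCTTTC from 10 bases before the start onwards on the sense strand, and CCGGAAG, an Ets factor motif, on either strand.
Rpl28 (chr7:4792865-4792984, plus strand): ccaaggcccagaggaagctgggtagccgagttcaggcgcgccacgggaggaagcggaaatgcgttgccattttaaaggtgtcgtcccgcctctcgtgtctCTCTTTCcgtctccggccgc
Rps28 (chr17:33824543-33824662, minus strand): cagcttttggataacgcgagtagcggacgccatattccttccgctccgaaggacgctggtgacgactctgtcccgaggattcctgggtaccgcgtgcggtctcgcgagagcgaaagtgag
Rps26 (chr10:128626487-128626606, minus strand): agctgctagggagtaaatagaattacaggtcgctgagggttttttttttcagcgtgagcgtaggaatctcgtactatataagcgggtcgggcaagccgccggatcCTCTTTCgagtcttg
Rpl13a (chr7:45128726-45128845, minus strand): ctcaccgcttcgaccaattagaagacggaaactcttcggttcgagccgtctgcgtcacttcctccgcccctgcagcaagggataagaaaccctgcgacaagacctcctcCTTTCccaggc
Rpl11 (chr4:136053374-136053493, minus strand): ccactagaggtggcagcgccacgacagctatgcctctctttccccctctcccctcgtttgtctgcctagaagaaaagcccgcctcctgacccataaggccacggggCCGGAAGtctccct
Rpl14 (chr9:120571417-120571536, plus strand): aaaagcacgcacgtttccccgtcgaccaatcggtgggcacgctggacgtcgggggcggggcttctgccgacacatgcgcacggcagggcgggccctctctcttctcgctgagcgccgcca
Rps3a1 (chr3:86142649-86142768, minus strand): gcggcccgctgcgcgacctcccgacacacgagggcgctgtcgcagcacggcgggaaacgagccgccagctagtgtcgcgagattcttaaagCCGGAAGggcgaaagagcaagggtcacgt
Rpl10l (chr12:66284382-66284501, minus strand): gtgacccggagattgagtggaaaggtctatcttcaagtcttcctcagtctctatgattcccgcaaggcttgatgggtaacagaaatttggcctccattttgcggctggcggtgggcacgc

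Pyrimidine runs at the start were more frequent in these promoters than in the reference as a whole. On the sense strand, CTTTC lay between 10 bases before and 20 bases after the start in 14 of 62 promoters (22.6%), against 3.74% of all 32851 promoters. The longer CTCTTTC, which contains CTTTC, was found anywhere in the 300 bases of 21.0% of member promoters and 3.99% of all. A start at C was annotated in 32.3% of members and 16.3% of all promoters, so the motif at which TOP mRNAs begin was seen in only part of the set as annotated. CCGGAAG, searched on both strands, occurred in 37.1% of member promoters, in 8.86% of all and in 16.6% of promoters of the genes tested for RNA. Shares for AAGATGG, the YY1 core, were 14.5% against 6.34% on both strands, and for CTTTTT on the sense strand 9.68% against 11.1%. The median GC content was 57% in members, 52.7% in all promoters and 61% in promoters of tested genes.

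The loci themselves are short and carry other RNA genes. The median gene span was 3175 bp, against 17146 bp over all protein-coding genes of the annotation. Small nucleolar RNA genes, whose products guide the chemical modification of ribosomal RNA and are cut from introns of their hosts, lay inside 29 of the 83 genes (34.9%), against 1.70% of protein-coding genes. In all 56 such genes lay inside members, with 5 in Rpl4. For 63 of the 83 genes the annotation names at least 1 pseudogene copy, 310 copies in all, and the counting of reads shared with a copy was not given in the sources used here. Counts of these genes are therefore uncertain, and CPM values, which are not corrected for length, are compared below only between libraries of the same gene.

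RNA libraries held 9410843 to 13350561 counts, and the 83 genes together took 0.921% to 1.09% of them. All 11 hippocampal and 13 neuronal marker genes listed passed the low count filter. Markers of the choroid plexus, a ventricular tissue, were unevenly present: their mean log2 CPM ran from 0.76 to 5.17 between libraries. The mean log2 CPM of 8 nuclear-retained long RNAs, among them Malat1 and Meg3, was lowest in old conditioned library 61 (7.86) and highest in young naive library 79 (9.09). Both libraries also held the highest and the lowest mean of the ribosomal protein genes, as described below.

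Of the 83 genes, 79 passed the low count filter. The other 4 were Rpl10l, an autosomal retrocopy of Rpl10 with 0 counts in all libraries, Rpl39l with 4 counts in all, Rpl3l, the striated muscle form of Rpl3, with 21, and Rpl26 with 60. The first 3 are paralogs known for expression in testis or muscle, while Rpl26 is a core protein of the large subunit. Rps27 with 172, Rpl30 with 322 and Rpl34 with 730 counts over the 12 libraries passed, and their values carry a large counting error. Rps4l, annotated as a transcribed pseudogene that lies within the span of Tmtc1, had 1900 counts.

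RNA of most of these genes was slightly higher in old mice, and no single gene passed the test. Between naive mice, 75 of the 79 genes had a higher level in the old group, with a median log2 fold change of 0.12, while 48.4% of the 14405 genes tested were higher and their median was -0.01. In edgeR's quasi-likelihood test with Benjamini-Hochberg adjustment over all genes, 0 of 79 members were called in this comparison (background 0.0555% of all genes), and the smallest adjusted p was 0.303. An unadjusted p under 0.05 was reached by 18 members (22.8%, against 10.3% of all genes), all higher in old mice, and DESeq2 also called 0. A typical standard error was 0.09 per gene, close to the size of the median difference.

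The libraries of old naive mice lay wholly above those of young naive mice in 24 of 79 genes (30.4%), and wholly below in 0. Over all genes tested, 7.09% lay wholly above and 6.35% wholly below. Rpl39, a small protein of the large subunit at the exit tunnel, was measured at 48.2, 61.0 and 46.8 CPM in old naive and 42.3, 37.6 and 42.8 CPM in young naive libraries. The lowest old library lay above the highest young one, and the log2 fold change was 0.35 (SE 0.11, adjusted p = 0.305 in edgeR). Rpl35a, a large subunit protein whose human counterpart is mutated in some families with Diamond-Blackfan anaemia, had 130, 140 and 127 CPM against 115, 117 and 114 CPM (log2 fold change 0.20, SE 0.07, adjusted p = 0.332 in edgeR). The members with the smallest p among those lower in old naive mice were Rpl7l1 at -0.07, Rps27 at -0.10 and Rps4l at -0.03, each smaller than its standard error.

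**Figure D1:**
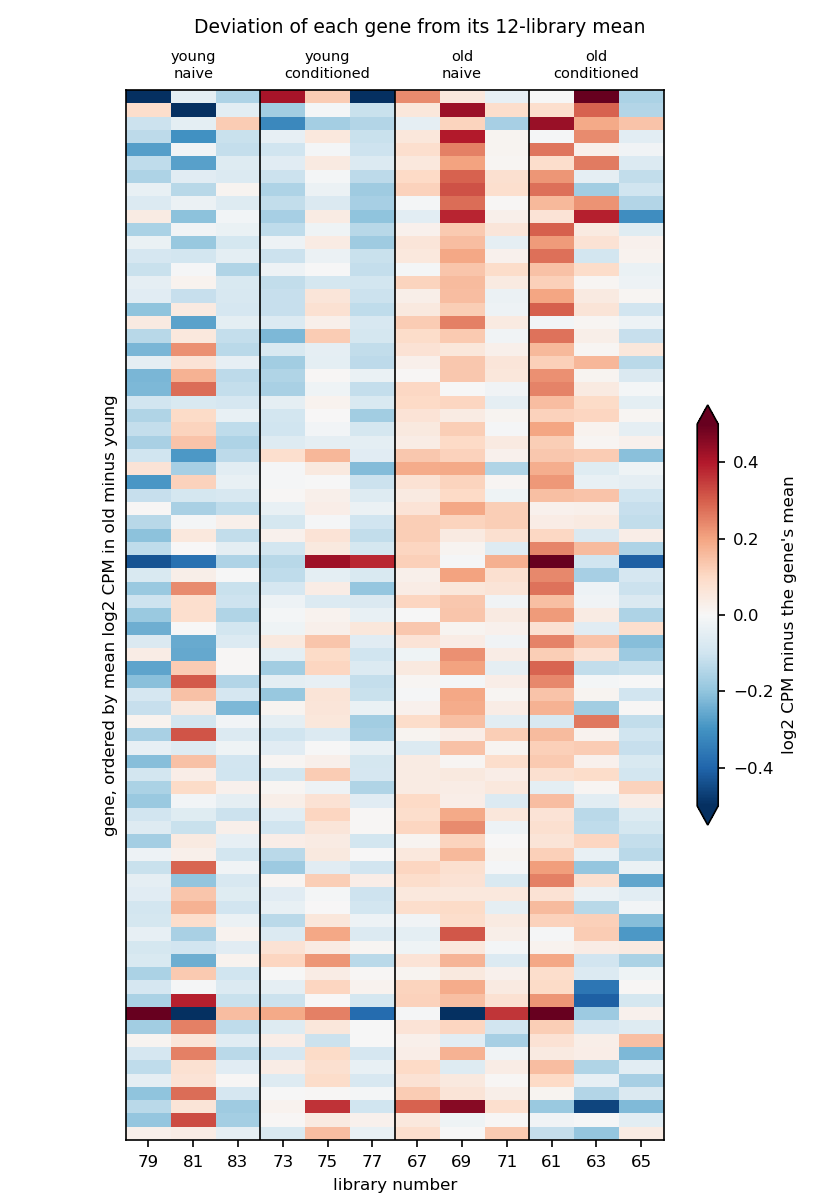
Each row is 1 of the 79 tested genes and each column 1 of the 12 libraries, and colour gives log2 CPM minus the mean of that gene over the libraries, with the scale ending at -0.5 and 0.5. Genes are ordered by the old minus young difference. Columns 61 and 69 are red for nearly all rows (70 and 71 genes above their mean), columns 79, 77 and 83 mostly blue (10, 10 and 11 genes above), and column 81 mixes both.

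Between conditioned mice the difference was less even. Here 58 of 79 genes were higher in the old group, with a median log2 fold change of 0.08. None was called (background 0.0347%), the smallest adjusted p was 0.212 in edgeR, and DESeq2 called 0. An unadjusted p under 0.05 was reached by 6 higher members and 1 lower one, 8.86% together. Among all genes 13.37% reached it in either direction (6.23% higher and 7.14% lower), so the member share lay below the background. Libraries did not overlap in 7 members higher (8.86%, against 11.3% of all genes) and 2 lower in old mice (2.53%, against 11.8%). Among members higher in old mice the smallest p-values were those of Rps4l at 0.47 (SE 0.12, adjusted p = 0.212 in edgeR), the stalk protein gene Rplp1 at 0.20 and Rps23, which lines the decoding centre, at 0.14. On the other side stood Rps27l at -0.39 (SE 0.16), Rpl22l1 at -0.11 and Rps27a, which is made as a fusion with ubiquitin, at -0.10.

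Averaged over both conditions, 75 of 79 genes were higher in the 6 old libraries, with a median of 0.09 against 0.00 over all genes. The count called was again 0 (background 0.375%), with 23 higher and 0 lower members at an unadjusted p under 0.05 (29.1%, against 16.6% of all genes), a smallest adjusted p of 0.128, and 0 called by DESeq2. No member separated all 6 old from all 6 young libraries, against 0.833% of all genes higher and 0.569% lower. Rps23 came first with 142 CPM in its lowest, 153 at the median and 161 in its highest old library, and 133, 136 and 146 CPM in young ones. The groups overlapped between the lowest old and the highest young library, and the log2 fold change was 0.14 (SE 0.04, adjusted p = 0.128 in edgeR). Rps10, at the small subunit head, ran from 94.4 over 99.3 to 115 CPM in old libraries and from 79.1 over 89.1 to 95.1 CPM in young ones. Its log2 fold change was 0.21 (SE 0.06, adjusted p = 0.134 in edgeR). Rpl4, a large subunit protein that reaches into the exit tunnel, ran from 326 over 355 to 369 CPM against 300.02 over 318 to 333 CPM (log2 fold change 0.14, SE 0.04, adjusted p = 0.152 in edgeR). Without young naive library 81, 2 members were called for age on average: Rpl3, the protein nearest the peptidyl transferase centre, at 0.16 (adjusted p = 0.0300 in edgeR) and Rps3, at the mRNA entry channel, at 0.20 (adjusted p = 0.0246 in edgeR). With the choroid plexus score as a covariate, Rps10 was called at 0.27 (adjusted p = 0.0359 in edgeR). Both subunits showed the direction: 45 of 47 large subunit genes and 30 of 32 small subunit genes were higher in old mice, with medians of 0.09 in each.

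**Figure D2:**
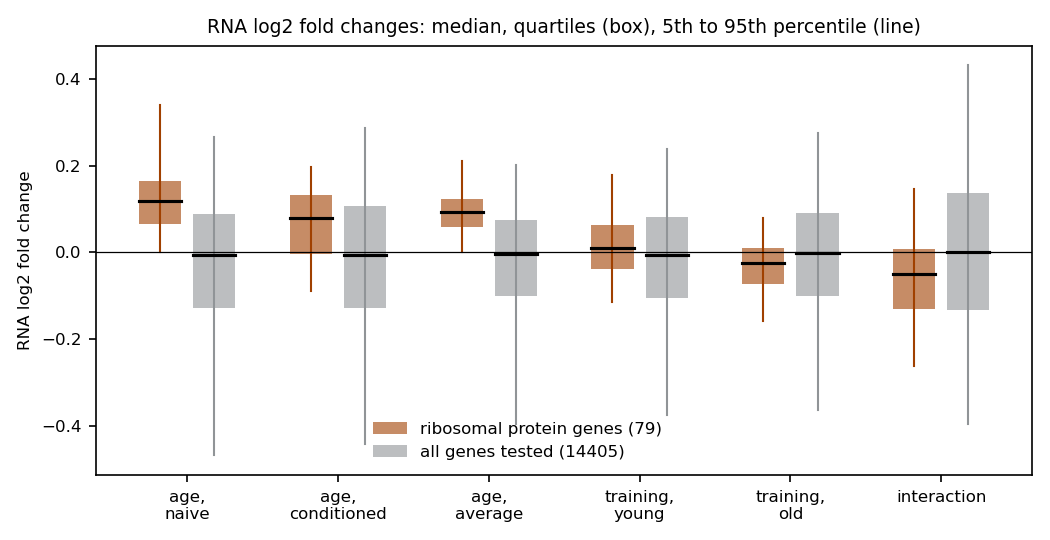
RNA log2 fold changes of the 79 tested ribosomal protein genes and of all 14405 tested genes in 6 comparisons, with the median as a black line, the quartiles as a box and the 5th to 95th percentile as a thin line. Age is old minus young, training is conditioned minus naive, and the interaction subtracts the young training effect from the old one. The boxes of the ribosomal protein genes lie above 0 for age in naive mice (0.06 to 0.16) and on average (0.06 to 0.12), and cross 0 for training.

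Levels by library show how unevenly the age difference was carried. The mean log2 CPM of the 79 genes was 6.69 ± 0.05 in the old naive and 6.65 ± 0.11 in the old conditioned group, against 6.56 ± 0.06 for young naive and 6.59 ± 0.07 for young conditioned libraries (SD, n = 3 each). Old conditioned library 61 had the highest mean (6.77), while library 65 of the same group (6.55) lay below library 75 of the young conditioned group (6.66) and library 81 of the young naive group (6.62). The share of counts taken by the members was 1.04% ± 0.046 for old naive and 1.01% ± 0.065 for old conditioned libraries, against 0.974% ± 0.070 and 0.973% ± 0.046 for their young counterparts (SD, n = 3 each). Without libraries 79 and 61 the median log2 fold change was 0.09 in naive mice with 65 of 79 higher, 0.01 in conditioned mice with 44 of 79 higher, and 0.05 on average with 60 of 79 higher. On average over conditions the median was 0.06 without library 61 alone. Between conditioned mice it was 0.01 without that library, 0.13 without old conditioned library 65, 0.04 without young conditioned library 77 and 0.08 with all libraries.

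Nuclear-retained RNAs moved the other way with age. Their mean log2 CPM ran from 7.86 to 8.55 in the 6 old libraries and from 8.15 to 9.09 in the 6 young ones, and 7 of the 8 were lower in old mice on average, all 7 with an unadjusted p under 0.05 and none called. Their median log2 fold change was -0.55 between naive groups, -0.33 between conditioned groups and -0.45 on average. With this score as a covariate the ribosomal protein genes had a median age difference of 0.05 in naive mice, 0.02 in conditioned mice and 0.02 on average, with 51, 45 and 49 of 79 genes higher. The part of nuclear RNA content in the difference was not tested further. All 14 microglial markers were higher in old mice, 2 of them called in naive mice and 4 on average, with medians of 0.28 and 0.30. Other marker lists shifted too. On average, 12 of 13 neuronal (median 0.09), 9 of 11 hippocampal (0.13), 7 of 10 endothelial (0.18) and 8 of 10 astrocyte markers (0.03) were higher. Of choroid plexus markers 0 of 16 were higher (-2.02), of oligodendrocyte markers 0 of 12 (-0.17) and of ependymal markers 0 of 7 (-0.40). Among these other lists only 1 gene, an astrocyte marker, was called. In bulk tissue, a change in the share of a cell type and a change in RNA per cell cannot be told apart.

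**Figure D3:**
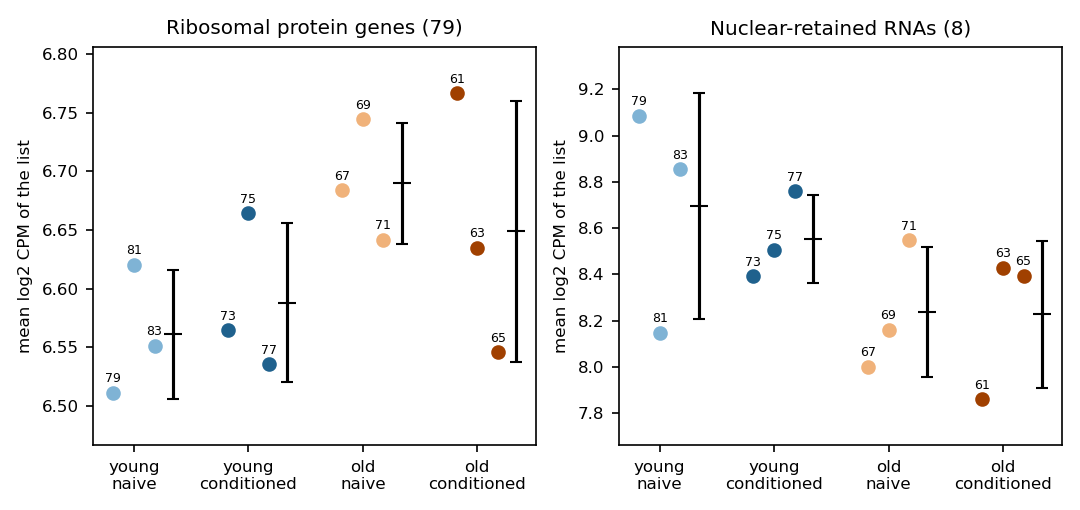
Mean log2 CPM of the 79 ribosomal protein genes (left) and of 8 nuclear-retained RNAs (right) in each library, labelled by its number, with the group mean and SD (n = 3) beside the points. Libraries 61 and 69 are high on the left (6.77 and 6.74) and library 79 is lowest there (6.51) and highest on the right (9.09).

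After training the RNA of these genes differed little between groups at 30 min. In young mice 44 of 79 genes were higher after conditioning, the median log2 fold change was 0.01, and 0 were called (background 0.0278%; smallest adjusted p 0.730 in edgeR's test). An unadjusted p under 0.05 was found for 3 of 79 members, all of them higher, against 6.63% of all genes, and DESeq2 called 0. The median was -0.03 with 31 of 79 higher without young conditioned library 75, -0.01 with 37 higher without young naive library 79, and 0.07 with 60 higher without young naive library 81. In old mice 24 of 79 were higher, the median was -0.03, and 0 were called (background 0.0139%; smallest adjusted p 0.695 in edgeR), with 1 higher and 4 lower members at an unadjusted p under 0.05 (6.33% together, against 7.16% of all genes) and 0 called by DESeq2. Averaged over ages, 34 of 79 were higher with a median of -0.01, 0 were called by edgeR (background 0.0764%) or DESeq2, and no member reached an unadjusted p under 0.05, against 6.99% of all genes. The same libraries registered the training: all 13 early response genes were higher in conditioned mice at each age, 4 of them called in young and 2 in old mice. Fosb, a subunit of the AP-1 transcription factor, had 6.93 ± 0.72 CPM in naive and 15.7 ± 2.87 CPM in conditioned young mice (SD, n = 3; log2 fold change 1.19, adjusted p = 0.0049 in edgeR).

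In young mice the smallest p-values belonged to Rpl23a, Rpl34 and Rps15a. Rpl34 had 4.68, 6.91 and 6.68 CPM in conditioned and 3.82, 3.97 and 4.63 CPM in naive libraries, a log2 fold change of 0.54 (SE 0.22, adjusted p = 0.730 in edgeR) that rests on 36 to 83 counts per library. Rpl23a, a docking site for the signal recognition particle at the exit tunnel, had 125.4, 133 and 114 against 111, 97.1 and 108 CPM, and Rps15a 124.9, 122 and 119.6 against 112, 111 and 114 CPM. In all 3 the conditioned libraries lay above the naive ones, by a small margin. Among members with lower values after training were Rps4l at -0.21, Rpl18 at -0.18 and Rplp0, the scaffold of the ribosomal stalk, at -0.16. Non-overlapping libraries were found in 8 higher (10.1%) and 4 lower (5.06%) members, against 7.14% and 5.64% of all genes.

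In old mice Rps27l and Rps4l stood at opposite ends. Rps27l, a paralog of Rps27 known as a p53 target, was measured at 7.07, 5.85 and 6.89 CPM in old conditioned and 9.86, 11.0 and 8.52 CPM in old naive libraries. The groups did not overlap, with a log2 fold change of -0.57 (SE 0.16, adjusted p = 0.695 in edgeR). Over the 12 libraries the gene had only 67 to 125 counts per library. Young libraries held 8.14, 10.3 and 7.49 CPM when conditioned and 7.32, 8.40 and 7.11 CPM when naive, so old naive libraries were the highest group and old conditioned ones the lowest. Rps4l had 18.3, 15.5 and 14.99 CPM in the old conditioned group and 13.2, 14.7 and 12.1 CPM in the old naive one. Its young values were 10.9, 12.1 and 12.2 CPM when conditioned and 12.6, 13.1 and 14.8 CPM when naive. After training it was higher in old mice by 0.29 (SE 0.12, adjusted p = 0.695 in edgeR) and lower in young mice, and the groups did not overlap at either age. Among other lower members in old mice was Rpl35a at -0.15, and among the higher ones were Rpl7l1, a Rpl7 paralog of ribosome assembly, at 0.15 and Rpl28 at 0.07. Non-overlap was seen in 2 higher (2.53%) and 5 lower (6.33%) members, against 6.57% and 6.22% of all genes.

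The training effect did not differ between ages past the threshold for any member. The interaction had 0 called members (background 0%, that is 0 of all genes; smallest adjusted p 0.680 in edgeR; 0 by DESeq2), with 1 member positive and 5 negative at an unadjusted p under 0.05 (7.59% together, against 7.2% of all genes). Its median was -0.05, and 23 of 79 members were positive, a count that was 12 without old conditioned library 61 and 42 without library 65. The unadjusted p was smallest for Rps27l at -0.75 (SE 0.22, adjusted p = 0.680 in edgeR) and next for Rps4l at 0.50 (SE 0.17, adjusted p = 0.680 in edgeR). Rpl35a followed on the negative side at -0.26 and Rpl7l1 on the positive side at 0.18. Across the 79 members, the training effects in young and old mice, which share no library, had a Spearman correlation of -0.07, against 0.04 over all 14405 genes.

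Choroid plexus markers moved along with training in old mice: all 16 were lower in the conditioned group, with a median of -2.73 and none called. With that score as a covariate, 51 of 79 ribosomal protein genes were higher after training in old mice, with a median of 0.03, in place of 24 with a median of -0.03. The sign of the set after training in old mice also turned on single libraries, with 8 of 79 genes higher without old conditioned library 61, 45 of 79 without library 65, and 43 of 79 without old naive library 69.

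Paralogs and stalk proteins followed no common rule. Rpl22 ran from 66.4 to 80.1 CPM over the 12 libraries and its paralog Rpl22l1 from 50.4 to 64.2 CPM, and both are expressed in hippocampus. Rpl7 ran from 163 to 228 CPM, with its highest value in young naive library 81, and Rpl7l1 from 30.4 to 37.8 CPM. Rpl3 ran from 363 to 448 CPM while Rpl3l held at most 5 counts in a library, and Rpl10 ran from 136 to 172 CPM with Rpl10l at 0. Of the stalk proteins, the age average was 0.17 for Rplp1 (SE 0.05, adjusted p = 0.161 in edgeR), 0.09 for Rplp2 and 0.07 for Rplp0. Rps6, whose protein is phosphorylated downstream of mTOR, was among the steadiest members (SD of log2 CPM 0.08 over the 12 libraries) at 170.0 to 208 CPM, with an age average of 0.03. Rps15a and Rpl6 varied least (SD 0.06 and 0.07), and the largest SDs were those of the thinly counted Rps27 (0.42), Rpl30 (0.36) and Rpl34 (0.32). Rps27 ran from 0.61 to 1.91 CPM. Young naive library 81 held the highest level of Rps4x, the X-linked small subunit protein, with 212 CPM against 148 and 151 CPM in the other young naive libraries, and the lowest of Rps29, with 95.3 CPM against 148 and 134 CPM.

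Some other lists, of protein synthesis and of mitochondria, were also mostly higher in old naive mice, and others were not. Of 5 ribosomal protein genes outside the naming pattern, 4 were higher in old naive mice with a median of 0.14 and none called. Translation factors were higher in 44 of 53 genes between naive groups (median 0.08, none called, and an unadjusted p under 0.05 in 6, all higher), led by Eif4b, which assists the mRNA-unwinding helicase, at 0.15. Oxidative phosphorylation genes, also many and short, were higher in 62 of 70 (median 0.10, none called), with the cytochrome c1 gene Cyc1 at 0.23 and Cox7c at 0.32. Mitochondrial ribosomal protein genes were higher in 57 of 77 (median 0.06, none called). Ribosome biogenesis genes were higher in 32 of 62 (median 0.01) and genes of the mTOR pathway and TOP mRNA control in 9 of 23 (median -0.05), with none called in either list. Between naive groups the median over all tested genes was -0.01. Between conditioned groups the medians were 0.12 for the 5 other ribosomal protein genes, 0.02 for translation factors and 0.06 for oxidative phosphorylation genes. They were 0.05 for mitochondrial ribosomal protein genes, -0.03 for ribosome biogenesis genes and -0.02 for the mTOR list. After training in young mice the kinase gene Mtor itself had -0.19 (SE 0.06, adjusted p = 0.730 in edgeR) and its activator Rheb 0.17, neither called.

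H2A.Z at the promoters of these genes was lower after training at both ages in the authors' deposited table, which gives group values without a spread over libraries. The young fold was negative at 65 of 68 promoters (95.6%), against 91.8% of promoter peaks of other genes, by the authors' deposited table. Its median log2 fold was -0.83, against -0.63 at promoter peaks of other genes. In that comparison 14 members (20.6%) passed the authors' FDR of 0.05 and all were lower, against 14.5% of all promoter peaks lower and 0.0164% higher in the authors' deposited table. The old fold was negative at 68 of 68 promoters, against 98.3% of promoter peaks of other genes, according to the authors' deposited table. Its median was -1.07, against -1.03 elsewhere. There 5 members (7.35%) passed, all lower, against 15.9% of all promoter peaks lower and 0% higher in the authors' deposited table. A stricter FDR of 0.01 left 8 members in young mice (11.8%, against 7.19% of all promoter peaks) and 0 in old mice (against 2.61%) in the authors' deposited table. The shares at an FDR of 0.05 rest on 14 and 5 peaks and stood on opposite sides of the background at young and old age. The medians lay below those of other promoter peaks at both ages, and the difference between ages was not tested.

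**Figure D4:**
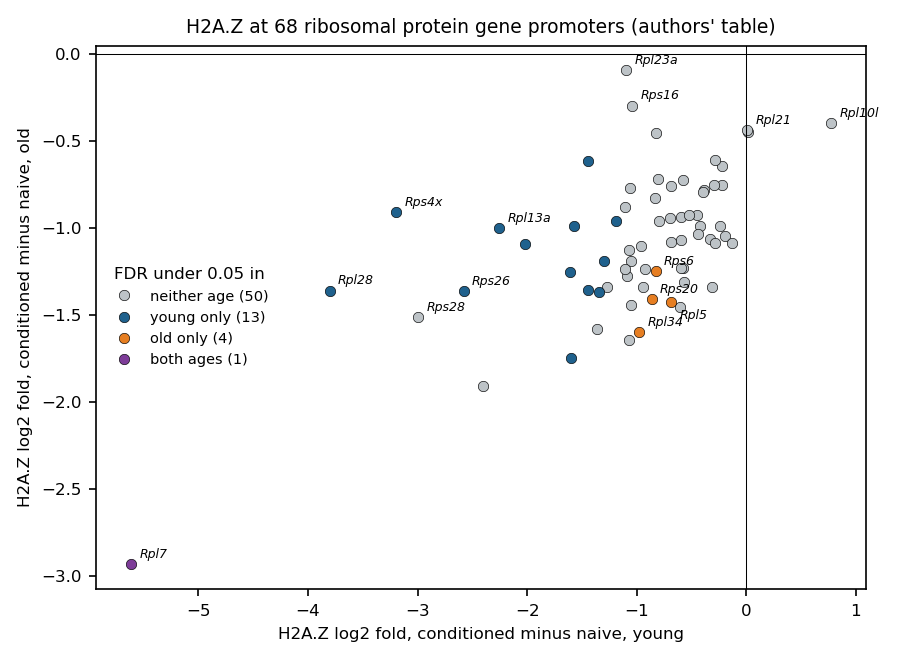
Each point is 1 of the 68 promoter peaks of ribosomal protein genes, placed by the authors' deposited log2 fold of H2A.Z after training in young (horizontal) and old mice (vertical), and coloured by the age at which it passed an FDR of 0.05. All points lie below 0 on the vertical axis, as do 98.3% of promoter peaks of other genes. Rpl7 lies farthest out on both axes (-5.61, a fold set by the floor of the young conditioned level, and -2.93).

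The deepest young losses stood far beyond the median. Rpl7 had a log2 fold of -5.61 (FDR 1.7e-06) in the authors' deposited table, and its peak (chr1:16104077-16104407, exonic, mm10) was called in 2 of 3 young naive and 0 of 3 young conditioned libraries. Its young conditioned level of -0.38 is the lowest value in that column of the authors' deposited table, shared by 483 peaks, so the size of this fold is set by that floor. No other member was at the floor in any group of the authors' deposited table. Rpl28, a large subunit protein, had -3.80 and Rps4x had -3.19 in the authors' deposited table. Rps28, whose promoter window is printed above, had -3.00 with an FDR of 0.051, so it missed the threshold in the authors' deposited table despite its size. Rps26, which lies at the mRNA exit channel, had -2.58 and Rpl13a -2.25, both from the authors' deposited table. The authors' deposited table called 6 of the members in none of the young conditioned libraries, among them Rpl28, Rpl7, Rps26, Rps28 and Rps4x. Their median young naive level was 5.44 on the authors' log2 scale, against 6.995 for the 46 members called in all 3 conditioned libraries of the authors' deposited table, where the absence of a call in conditioned libraries itself depends on the loss. Rpl13a, with a fold of -2.25, had a young naive level of 7.11 in the authors' deposited table. The part of peak strength in these folds was not tested. Also past the FDR in young mice were Rpl12, Rpl26, Rpl37, Rpl37a, Rpl6, Rpl9, Rplp1 and Rps12, with log2 folds from -1.19 to -1.61 in the authors' deposited table.

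At the other end, Rpl10l had 0.77 (FDR 0.601) and Rpl21 0.01 in young mice, among the 3 values above 0 in the authors' deposited table. The window of Rps3a1 printed above belongs to a promoter at -0.13 and that of Rpl14 to one at -0.19 in the authors' deposited table. Of the 4 windows with deep loss, 3 carried CTTTC at the start and 0 carried CCGGAAG, while 2 of the 4 windows with least loss carried CCGGAAG and 0 carried CTTTC at the start. The Rpl14 window, 1 of those with least loss, also starts at a C followed by a run of pyrimidines, which the search for CTTTC left unmarked. The Rpl10l window, also among those with least loss, belongs to a peak called in none of the young naive libraries. Its young naive level of 3.03 was the lowest among members in the authors' deposited table. With 4 windows an end this is a description of the printed sequences alone.

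In old mice 5 members were past the FDR. Rpl34 had -1.60 (FDR 0.015), Rps20 -1.41 (0.021), Rpl5 -1.42 (0.037), Rps6 -1.25 (0.040) and Rpl7 -2.93 (0.043) in the authors' deposited table. Rpl7 was the 1 member that passed at both ages in the authors' deposited table. Low folds in old mice were those of Rpl7 and of Rpl26 at -1.74, and the highest those of Rpl23a at -0.09, Rps16 at -0.29 and Rpl10l at -0.40, by the authors' deposited table. Across the 68 promoters the young and old training folds, which rest on different libraries, had a Spearman correlation of 0.48, against 0.52 over all 12204 promoter peaks in the authors' deposited table. The young training fold also ran with the old naive level (Spearman 0.49 over 68 promoters, 0.33 over all) in the authors' deposited table, the points sharing their peak width and base composition.

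No member's H2A.Z fold passed for age. Between naive groups 0 of 68 passed (background 0% in either direction), and 8 were negative (11.8%, against 10.7% at other promoters) in the authors' deposited table. The median there was 0.35 against 0.44 at other promoters. The highest were Rpl10l at 1.05, Rpl14 at 0.89 and Rpl13 at 0.86, and the lowest Rpl37a at -0.19, Rpl23a at -0.14 and Rpl18 at -0.10, from the authors' deposited table. Between conditioned groups 0 passed (background 0%), with a median of 0.12 against 0.10, in the authors' deposited table. The highest were Rpl7 at 2.84, again set by the floor of the young conditioned level, Rpl28 at 2.41 and Rps4x at 2.22 and the lowest Rpl22l1 at -0.41, Rps29 at -0.37 and Rps7 at -0.28, every FDR being 1.00 to 3 digits in the authors' deposited table.

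H2A.Z and RNA differences after training had correlations near 0 across these genes. Of the 14 members whose promoter passed in young mice, 13 were tested for RNA, and their training log2 fold changes ran from -0.11 to 0.17 with a median of 0.00 and 6 above 0. Rpl7, the deepest H2A.Z loss, had 187, 188 and 187 CPM in young conditioned and 163, 228 and 177 CPM in young naive libraries, a log2 fold change of -0.02 (SE 0.09, adjusted p = 0.978 in edgeR). Over the 66 genes with both values, the Spearman correlation of the H2A.Z fold from the authors' deposited table with the RNA fold change was -0.08 in young and 0.01 in old mice. Over all 10817 tested genes with a promoter peak it was 0.02 and 0.03. For age the correlation over the 66 genes was 0.17 in naive and -0.05 in conditioned mice, against 0.07 in each over all 10817. RNA and chromatin came from different libraries, and RNA was taken at a single time after training.

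Annotated histone mark regions placed most of these promoters among active ones. The sample labels list no library of these marks, so the regions are an annotation and not a measurement in these mice. By the authors' deposited table, 67 of 68 peaks overlapped a region of H3K4me3, the mark of active start sites, against 93.8% of other promoter peaks. H3K27ac, a mark of active promoters and enhancers, overlapped 64 of 68 (94.1%), against 66.6%, in the authors' deposited table. H3K4me1, more typical of enhancers and promoter flanks, overlapped 39 of 68 (57.4%), against 86.8%, according to the authors' deposited table. H3K27me3, the Polycomb mark of silenced genes, overlapped 0 of 68, against 35.01%, in the authors' deposited table. The peak without H3K4me3 was that of Rpl10l, whose nearest such region lay 185571 bp away in the authors' deposited table and which had no read in RNA. Rpl22, Rpl35, Rplp0 and Rpl10l were the 4 without H3K27ac in the authors' deposited table.

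**Figure D5:**
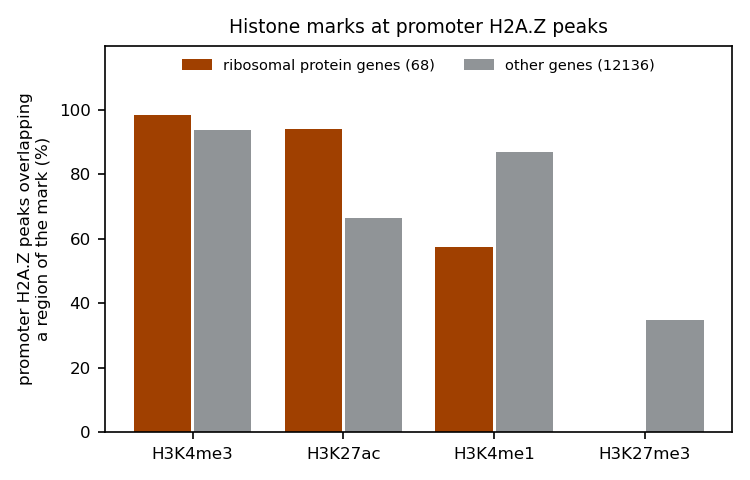
Bars give the percentage of promoter H2A.Z peaks that overlap a region of each histone mark in the authors' deposited table, for the 68 ribosomal protein gene peaks and the 12136 promoter peaks of other genes. The ribosomal protein bar is higher for H3K27ac (94.1% against 66.6%), lower for H3K4me1 (57.4% against 86.8%) and at 0 for H3K27me3. The mark regions are annotated, and the sample labels list no library of them.

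These peaks were of ordinary size and height. Their median width was 969 bp against 986 bp at other promoters, and their median position 100 bp downstream of the start, in the authors' deposited table. The median young naive level was higher than at 53.4% of all promoter peaks in the authors' deposited table. Calls in all 3 libraries of a group covered 80.9% of members in young naive mice and 67.6% after conditioning, against 65.1% and 68.8% elsewhere in the authors' deposited table. Among old mice these shares were 66.2% in the naive and 64.7% in the conditioned group, against 72.0% and 65.2% elsewhere, in the authors' deposited table.

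A promoter peak was not assigned to 15 members: Rpl10, Rpl3, Rpl36a, Rpl39, Rpl39l, Rpl3l, Rpl4, Rpl41, Rpl7l1, Rps18, Rps25, Rps27, Rps27a, Rps4l and Rps9. For Rpl41, Rps18, Rps25, Rps27, Rps27a and Rps4l another gene column of the authors' deposited table names the member at a peak assigned to a neighbour. The peak named for Rps18 and assigned to Vps52, 83 bp from the Vps52 start, had a log2 fold of -1.63 (FDR 0.0025) after training in young mice in the authors' deposited table. That of Rps25, shared with Trappc4, had -0.98 (FDR 0.099) in the authors' deposited table.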

How the data were processed

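Groups were taken from the labels. For RNA the authors deposited raw read counts per gene symbol. H2A.Z values come from 1 deposited table of peaks merged over libraries (mm10), which holds log2 folds, log2 group levels, p-values and FDR values. It also gives calls per group and distances to genes and to histone mark regions. The submitters' processing notes name, with no role given, MACS2 2.0.10, Bowtie2 2.2.1, DiffBind 1.12.2, HTSeq 0.6.1p2, TopHat and edgeR 3.8.6; both mm9 and mm10 are listed. The annotation, the strand setting, the handling of reads with several matches and the scaling of the H2A.Z folds were not given in the sources used here.

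Counts were fitted in R 4.3.3 with edgeR 4.0.16 (TMM, filterByExpr, 1 quasi-likelihood fit of the 4 groups over all 12 libraries), tested for 7 contrasts and adjusted by Benjamini-Hochberg over 14405 genes at 0.05. Standard errors came from the F statistic. CPM use TMM library sizes, and log2 CPM a prior count of 2. On simulated counts for training in young mice (14278 genes, 200 changed) the fit recovered 63% of changes of 1.5-fold and 87% of 2-fold, with 9 false calls. Apart from the planted changes, the simulated libraries shared the same gene proportions, so uneven tissue content was not simulated. The planted changes were also larger than the median member differences, so these shares do not give the recovery for such small changes. The deposited H2A.Z folds were reversed in sign, so that positive means higher in conditioned or old mice. Groups written T were read as conditioned, since N was read as naive. Levels of old groups differ from the folds by a constant (0.22, -0.33 and -0.12 for training in old mice, age in naive and age in conditioned mice), so levels were compared within a group only. Promoters are from RefSeq (GRCm38.p6).

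Members and lists were chosen with earlier results of these data known. Genes named are those with an adjusted p under 0.05, else the 3 higher and 3 lower with the smallest p in a comparison, chosen paralogs and stalk proteins, extremes of SD, genes the filter dropped, and for H2A.Z the 3 highest and lowest folds and those past the FDR. Certain genes that this rule names are not reported here. Rpl5, Rpl34, Rps20, Rps28, Rps29 and the windows printed were in part picked after their values were seen. Python 3.11.15 with pandas 2.3.3 and matplotlib 3.10.9 and, as an alternative, DESeq2 1.42.0 were used.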

Additional observations from a re-analysis of the deposited data

Results flagged for a closer look

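Rps4l had opposite training effects at the 2 ages, with every conditioned library above every naive one in old mice and below in young mice. The interaction was 0.50 (SE 0.17) with an adjusted p of 0.680 in edgeR, so the difference did not pass the test. Rps27l had opposite age effects in the 2 conditions, with every old library above every young one in naive mice and below in conditioned mice. Its interaction was -0.75 (SE 0.22), again with an adjusted p of 0.680 in edgeR. Taken singly, non-overlap was seen in 5.64% of all genes lower after training in young mice and 6.57% higher in old mice. For age it was seen in 7.09% of all genes higher in naive mice and 11.8% lower in conditioned mice. Opposite non-overlap was not counted over all genes, so these 2 flags do not set the members apart.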

How the results depend on the processing

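Over all comparisons and alternative settings, 433 summary values stayed the same and 17 moved. A count was labelled the same within a fixed ratio of the main one. RNA medians kept the label if they shifted by less than 0.075, the pooled within-group SD of the member score. H2A.Z medians used the SD of the member folds. The RNA limit is near the age medians (0.08 in conditioned and 0.12 in naive mice), so the label does not mean that an age difference held. The smaller age medians with the nuclear RNA score, given above, kept it. Of the values of genes named for their p in a comparison, 723 kept their sign and side of the threshold, 20 changed sign and 1 passed the threshold, and 2 further members that passed are given below. The causes were not tested.

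With the choroid plexus score as a covariate, the number of members with a higher level after training was 51 in old mice and 54 on average, the interaction was positive in 36, and 1 member was called for age on average (Rps10 at 0.27, adjusted p = 0.0359 in edgeR). That setting also turned the age averages of Rpl22l1 to 0.000533, of Rps4x to 0.0267 and of Rps27l to 0.12. With the nuclear RNA score as a covariate 49 members were higher with age on average and Rps27 turned to 0.17 in naive mice. Without young naive library 79 and old conditioned library 61 together, an alternative chosen after seeing the data, 8 members were higher after training in old mice and 18 on average, Rpl28 turned to -0.0105 in old mice and Rps27 to 0.26 in naive mice.

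Leaving out each library in turn gave 8 to 45 members higher after training in old mice, 18 to 50 on average, 12 to 42 positive for the interaction, and 0 to 2 called for age on average. The 2 calls, Rpl3 (0.16, adjusted p = 0.0300 in edgeR) and Rps3 (0.20, adjusted p = 0.0246 in edgeR), came without young naive library 81. Named genes whose sign turned ranged from -0.25 to 0.0046 for Rplp0 after training in young mice and from -0.0105 to 0.18 for Rpl28 in old mice. For age they ranged from -0.47 to 0.26 for Rps27 and -0.098 to 0.046 for Rps4l in naive mice, and from -0.19 to 0.0226 for Rps27a in conditioned mice. On the age average the ranges were -0.0542 to 0.0189 for Rpl22l1, -0.0682 to 0.0717 for Rps4x and -0.0607 to 0.0583 for Rps27l.

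At an FDR of 0.01 in the authors' deposited table, 8 member promoters were past the threshold in young mice (11.8%, against 7.19% of all promoter peaks) and 0 in old mice (against 2.61%). No paired analysis was possible because the RNA library numbers in the labels do not recur between groups and the H2A.Z table holds no values per library. The relation of H2A.Z level to RNA level, and its version per coding length, were not run, since coding lengths were not used here. Depth limits Rps27, Rpl30 and Rpl34 most, and next Rps27l with 67 to 125 counts per library. With 3 libraries per group, single genes with differences near their standard error stay undecided.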
